A study of Oryza sativa with 4 samples.

Results

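Leaves of OsABA8ox3 RNAi rice were compared with leaves of wild-type rice (WT) after 2 h of polyethylene glycol (PEG). OsABA8ox3 encodes an ABA 8′-hydroxylase, an enzyme that breaks down abscisic acid (ABA), and PEG draws water away from the roots and so imitates drought. The comparison rests on 2 of the 4 arrays of the study, the array of ABA8ox3 RNAi leaves and the array of WT leaves after 2 h in 20% PEG, and the arrays of both genotypes at 0 h served to show which differences were there before the treatment. All plants were seedlings of the japonica cultivar ZH11 (Zhonghua 11), sampled at the four-leaf stage. The methods name the RNAi plants as the line RNAi-9, which carries an insertion at a single site, and they count plants transformed with the pYL vector as WT, whereas the labels call the WT samples only ZH11 wild type. The RNAi difference is therefore that of 1 line, and an effect of its insertion site or of the selection marker cannot be told apart from that of the silenced gene. Untreated leaves were not measured at 2 h, and each group had 1 array, so that the differences below have no replicate check, no error and no test.

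Under water deficit ABA accumulates and, through its receptors, releases SnRK2 kinases from inhibition by protein phosphatases 2C. The kinases then activate bZIP factors, which switch on genes for dehydrins and other late embryogenesis abundant (LEA) proteins that protect drying cells. Heat shock proteins form another protective system. Small heat shock proteins hold unfolding proteins, ClpB chaperones dissolve aggregates, and both are under the control of heat stress factors.

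The signals were log2 values of 57258 probe sets, the 64 reporter probe sets of the array among them, and a signal under 6 was counted as 6. The median log2 signal was 5.45 in RNAi-9 and 5.42 in WT at 2 h, and 43.4% of the probe sets in RNAi-9 and 42.9% in WT reached 6. The 9 bacterial and phage hybridization controls, which are added in equal amounts to every array, were all brighter on the RNAi-9 array at 2 h, by 0.25 to 0.54 and on average by 0.41. At 0 h the same controls differed by 0.06 on average. A second set of 24 control probe sets, for polyadenylated Bacillus transcripts, was on average 0.18 higher in RNAi-9 at 2 h, with a range of −0.39 to 1.01. Scaling the arrays to the hybridization controls lowers most RNAi-9 differences at 2 h by about this amount, and values under that scaling are therefore given beside the counts. The 3′ signal exceeded the 5′ signal of actin by 4.28 in RNAi-9 and 4.33 in WT at 2 h, that of GAPDH by 2.53 in RNAi-9 and 2.33 in WT, and that of ubiquitin by −0.18 in RNAi-9 and −0.15 in WT. These measures of RNA integrity thus lay close together between the genotypes. Their closeness does not show intact RNA, as the 3′ signals of actin and GAPDH were well above the 5′ signals on both arrays. As a check of the tissue, the light-harvesting gene CAB2R had a log2 signal of 15.38 in RNAi-9 and 15.08 in WT, while 7 of the 10 seed storage protein genes stayed at the floor in both. OsABA8ox3 itself was not paired with a probe set here, and its silencing was not checked on the arrays.

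After PEG more probe sets were higher in RNAi-9 than lower, but this balance depended on the scaling. In RNAi-9, 1123 probe sets were over 2-fold higher (1.96% of all) and 509 were over 2-fold lower (0.889%), so that 69% of those past 2-fold were higher. After scaling to the hybridization controls 452 were higher (0.789%) and 2230 lower (3.89%), and the share of higher ones was 17%. All 452 were among the 1123, and all 509 stayed over 2-fold lower. This was fixed in advance, because that scaling lowers a difference at 2 h or leaves it unchanged. The median difference of the 26519 probe sets with a signal of 6 or more on either array was −0.01, and −0.38 after that scaling. The large differences were mostly on the higher side under both scalings. Over 8-fold, 42 probe sets were higher and 2 were lower, and over 4-fold 125 were higher and 23 lower. With the hybridization controls the counts were 30 higher and 6 lower over 8-fold, and 76 higher and 45 lower over 4-fold. Less RNA per cell and fewer cells of a type cannot be told apart in whole leaves. Of the 42, 30 are paired with a single gene and 13 of these with a named gene, and 12 belong to 9 genes for heat shock proteins, ClpB chaperones and heat stress factors. The threshold cuts through a continuous distribution, with 506 probe sets at a difference of 0.9 to 1.1.

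**Figure D1:**
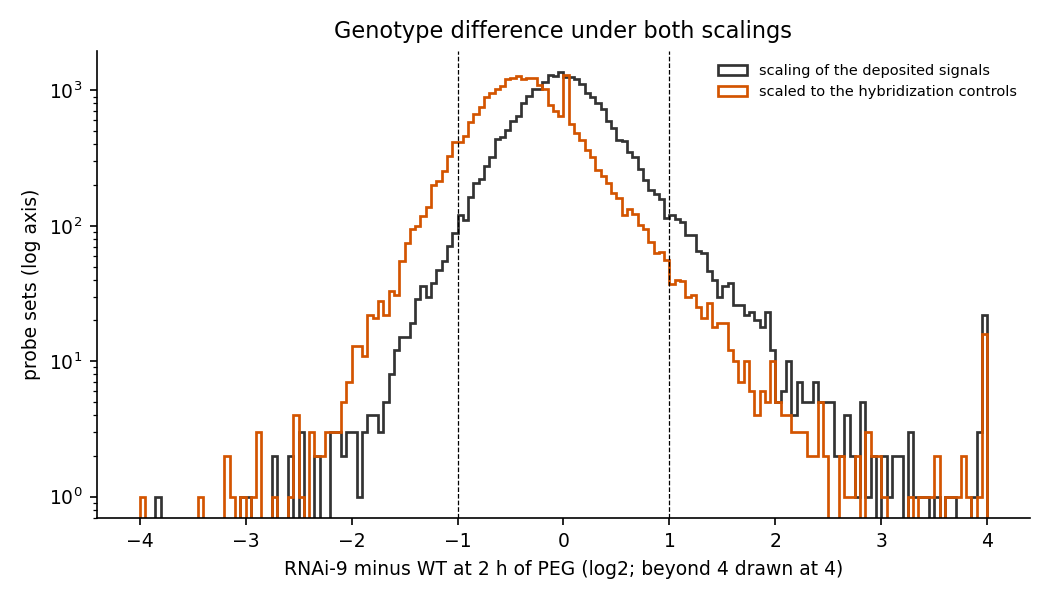
Number of probe sets (log axis) by RNAi-9 minus WT log2 difference at 2 h of PEG, for the 26519 probe sets with a signal of 6 or more on either array, under the scaling of the deposited signals and after scaling to the hybridization controls; dashed lines mark 2-fold. The whole distribution moves from a median of −0.01 to −0.38, while the long tail on the higher side stays.

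Genes of the heat shock system were the named genes furthest apart. Small heat shock proteins were higher in RNAi-9 for 10 of 19 genes at over 2-fold, against 4.62% of all 2447 genes with a name, and none was over 2-fold lower, against 1.06%. The median difference of the list was 1.18, against 0.00 for all named genes. With hybridization control scaling 9 of the 19 remained over 2-fold higher (1.84% of all named genes) and the median was 0.93 (−0.28 for all named genes). At 0 h the median of the same list was 0.00 and 1 gene was over 2-fold higher (4.29% of all named genes), so the difference lay almost wholly in the treated leaves.

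HSP26.7, a plastid small heat shock protein, had a log2 signal of 12.53 in RNAi-9 and 4.46 in WT at 2 h, a difference of 6.53 above the floor. It was the 1 member that also differed before PEG, with 9.33 in RNAi-9 and 1.26 in WT at 0 h. HSP18.6 had 11.60 in RNAi-9 and 6.22 in WT at 2 h, against 6.86 in RNAi-9 and 6.14 in WT at 0 h. A second probe set of this gene gave 10.23 in RNAi-9 and 4.63 in WT at 2 h, while the remaining probe set was under 6 on all arrays. HSP18.1 reached 12.44 in RNAi-9 and 7.42 in WT at 2 h, and 7.82 and 7.54 were its signals in RNAi-9 and WT at 0 h. Its other probe set, which can also bind related transcripts, gave 12.16 in RNAi-9 and 8.24 in WT at 2 h, and 7.87 in RNAi-9 and 7.10 in WT at 0 h. The genotypes lay within 2-fold at 0 h on both probe sets, and the WT signal stayed near its 0 h level on the first and was over 2-fold higher after PEG on the second.

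HSP16.9A and HSP17.7 also lay within 2-fold at 0 h. At 2 h they had 10.36 and 9.67 in RNAi-9, against 6.50 and 5.36 in WT. The other probe set of HSP17.7 was under 6 on all arrays. HSP23.2 was under 6 in both genotypes at 0 h and had 9.65 in RNAi-9 and 5.07 in WT at 2 h. HSP17.4 differed from these in that it was high in both genotypes after PEG, with 13.81 in RNAi-9 and 10.97 in WT, and at 0 h it was the lower in RNAi-9 (6.68, against 7.65 in WT). HSP16.9B, HSP17.9A and HSP17.8 made up the rest of the 10, with differences of 2.29, 1.54 and 1.18. Among the others HSP24.1 reached 0.96 and HSP18.8, already bright at 12.37 in RNAi-9 and 11.90 in WT, 0.47. HSP22.3 (−0.45) and HSP26.2 (−0.64) had differences on the other side. In all, 16 of the 19 genes had a higher signal in RNAi-9. From 0 h to 2 h, 12 of the 19 went up over 2-fold in RNAi-9 and 3 in WT, and 1 went down in each. The share of all named genes that went up or down from 0 h to 2 h was not counted. These numbers were therefore not set against the general response to PEG. HSP17.9A, HSP17.4, HSP18.1 and HSP17.7 lie within a stretch of 8 genes on chromosome 3, of which 6 are paired with a probe set, and members with like sequence may share hybridization signal.

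**Figure D2:**
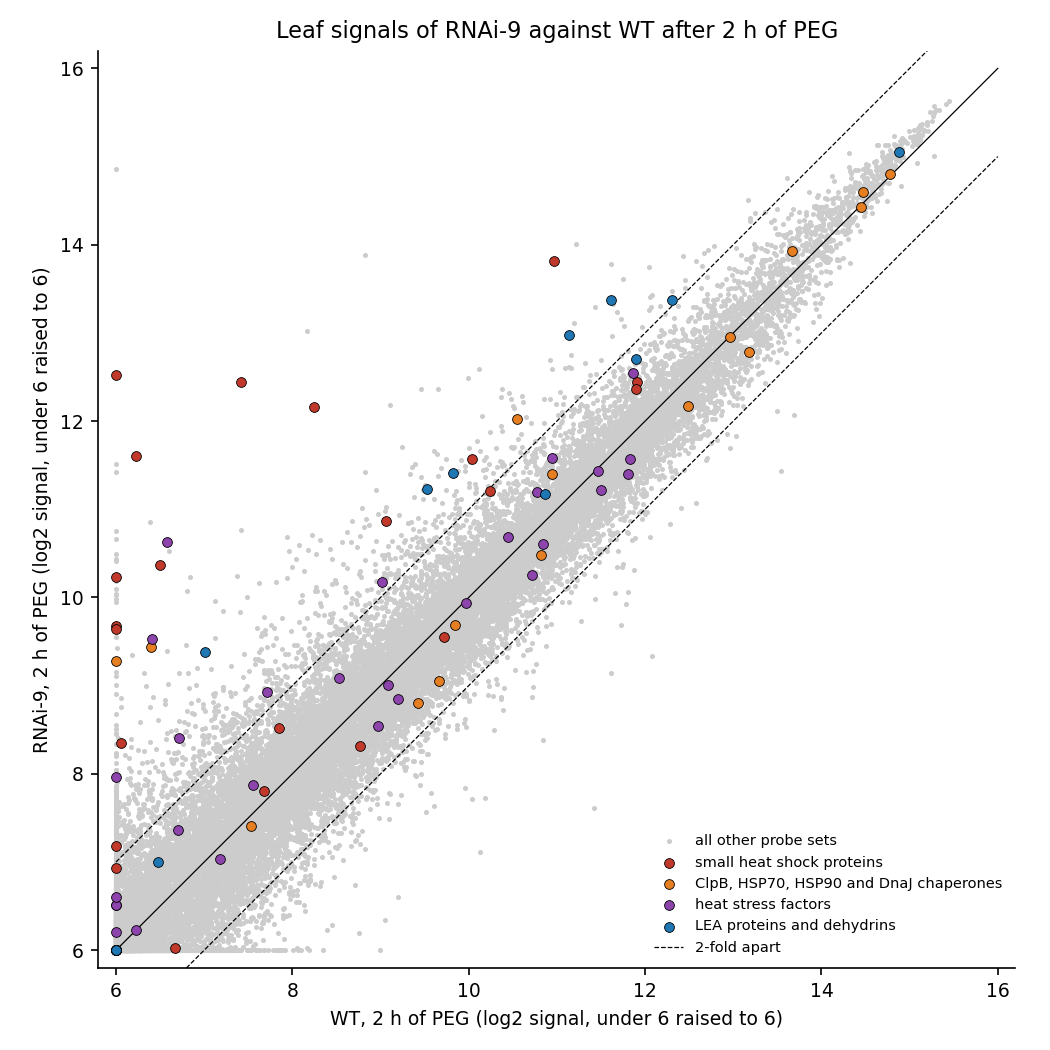
Log2 signal of each probe set in RNAi-9 (vertical axis) and WT (horizontal axis) after 2 h of PEG, with signals under 6 raised to 6 and dashed lines at 2-fold; the probe sets of 4 gene lists are coloured. Small heat shock proteins, 10 of 19 genes over 2-fold higher in RNAi-9, stand far above the diagonal, and the grey point at the upper left edge is a reporter probe set (14.85 in RNAi-9, under 6 in WT).

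Chaperones that work with small heat shock proteins divided by family. All 3 ClpB genes were higher in RNAi-9, whereas the HSP90 and DnaJ genes on the list were not. CLPB1, the cytosolic disaggregase HSP101, had 9.28 in RNAi-9 and 6.0 in WT at 2 h, and was under 6 in both at 0 h. The mitochondrial CLPB-M had 9.44 in RNAi-9 and 6.4 in WT, and the plastid CLPB-C had 12.02 in RNAi-9 and 10.55 in WT, against 11.17 in RNAi-9 and 11.28 in WT at 0 h. All 3 kept their call under hybridization control scaling. The HSP90 genes HSP81-1, HSP81-2 and HSP81-3 had differences of −0.24, −0.02 and −0.16, and the luminal HSP70 gene BIP1 had −0.01. The list as a whole had 3 of 13 genes over 2-fold higher (4.62% of all named genes), none lower (1.06%), and a median of −0.01. With the hybridization controls 3 of 13 were higher (1.84% of all named genes) and 1 was lower, near the 6.58% of all named genes.

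Among 20 heat stress factors, the transcription factors that bind heat shock promoters, 3 were over 2-fold higher in RNAi-9 and none lower, with a median of 0.21 (−0.18 with the hybridization controls). Over all named genes 4.62% were higher and 1.06% lower, and the median was 0.00 (−0.28 with the hybridization controls). HSFA2A was the furthest apart. Its 3 probe sets read 10.63, 9.53 and 7.96 in RNAi-9, against 6.58, 6.4 and 5.65 for the same probe sets in WT, and all were under 6 in both genotypes at 0 h. HSFA6B had 8.41 in RNAi-9 and 6.71 in WT, and was likewise under 6 in both at 0 h. The remaining gene, listed as ARD1, is on the list because HSFA2C is among its other names. Its 2 probe sets were unlike each other at 0 h, and whether they detect the same gene was not tested. The first had 8.93 in RNAi-9 and 7.71 in WT at 2 h, against 5.92 in RNAi-9 and 6.09 in WT at 0 h, while the second had 10.17 in RNAi-9 and 9.02 in WT at 2 h, against 11.31 in RNAi-9 and 9.63 in WT at 0 h. Their mean difference of 1.19 dropped under 2-fold with hybridization control scaling, which left 2 of 20. The other 17 members lay between −0.42 and 0.69. From 0 h to 2 h, 7 of the 20 factors went up over 2-fold in RNAi-9 and 7 in WT, and the share of all named genes was not counted.

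**Figure D3:**
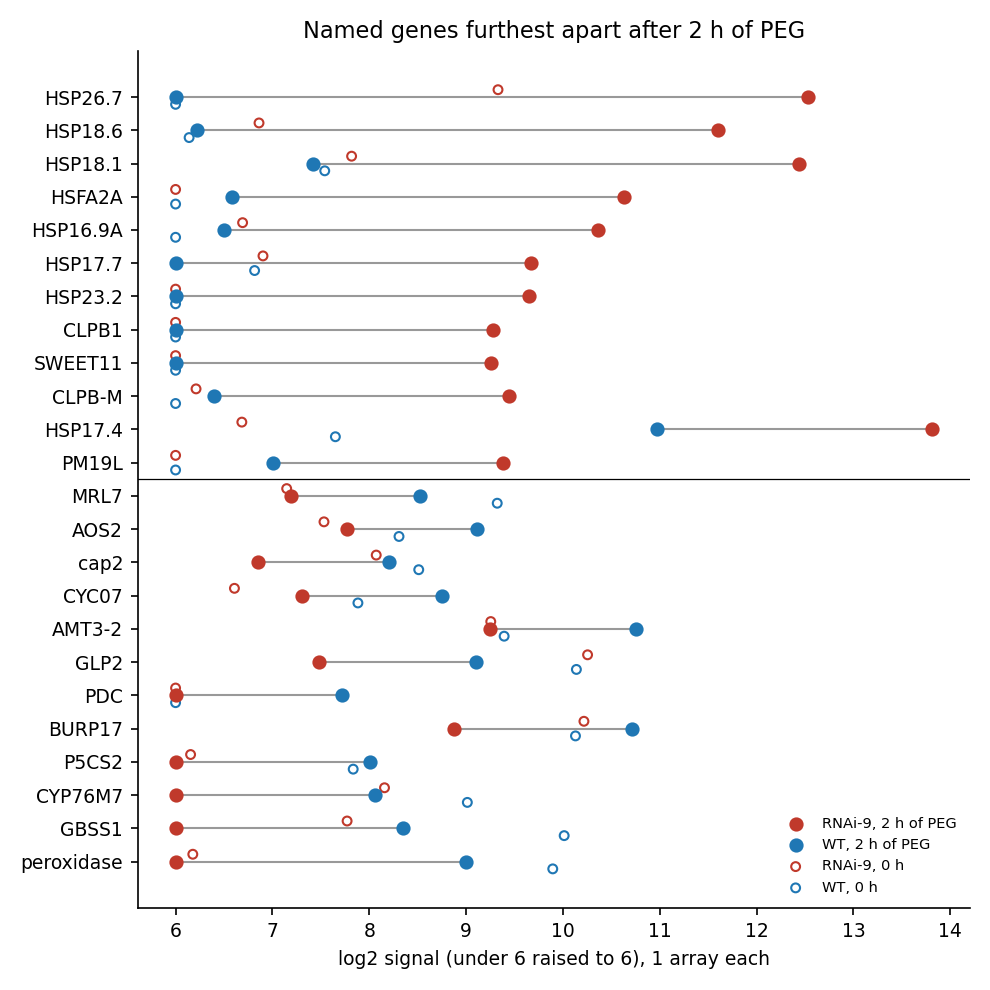
Log2 signals (horizontal axis, under 6 raised to 6) of the 12 named genes furthest above and the 12 furthest below WT in RNAi-9 at 2 h of PEG, each by its most different probe set; filled points are 2 h and open points 0 h, 1 array each. In 11 of the upper 12 genes the genotypes lay within 2-fold at 0 h, against 7 of the lower 12. Genes under 6 in both genotypes at 0 h count as within 2-fold because of the floor. HSFA2A and PM19L among the upper and PDC among the lower genes are examples.

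LEA proteins and dehydrins, the classical targets of ABA, were higher in RNAi-9 with smaller differences. Of 9 genes 5 were over 2-fold higher, against 4.62% of all named genes, and all 9 differed in that direction, with a median of 1.07. Scaling to the hybridization controls left 3 of 9 over 2-fold (1.84% of all named genes) and a median of 0.66 (−0.28 for all named genes). That scaling put rab25 and Dhn1 on the other side at −0.10 and −0.08. The dehydrin gene RAB21 had 13.37 and 12.98 on its 2 probe sets in RNAi-9, against 11.61 and 11.14 in WT, and at 0 h it had 8.18 and 8.43 in RNAi-9, against 6.84 and 7.13 in WT. RAB16C had 11.41 in RNAi-9 and 9.82 in WT at 2 h, and 8.43 in RNAi-9 and 7.32 in WT at 0 h. Both dehydrin genes were therefore over 2-fold higher before PEG too, and both went up in each genotype. Emp1, an LEA protein of the embryonic Em type, was different in that it was close at 0 h (6.31 in RNAi-9, 5.86 in WT) and apart at 2 h (11.23 in RNAi-9, 9.53 in WT). PM19L, an ABA-induced membrane protein, had 9.38 in RNAi-9 and 7.01 in WT on 1 probe set and was under 6 on the other. LEA19 was lower in RNAi-9 at 0 h (9.35, against 10.30 in WT) and higher at 2 h (13.37, against 12.30 in WT). RAB16B, RAB16D, rab25 and Dhn1 differed by 0.81, 0.52, 0.31 and 0.06, within 2-fold. After PEG, 7 of the 9 went up over 2-fold in RNAi-9 and 7 in WT, and here too the share of all named genes was not counted.

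The study took 9 loci to quantitative PCR. It chose them as induced on these arrays, so their direction on the arrays is no independent finding. By quantitative PCR the study reported all of them significantly above WT, in RNAi-9 and in another RNAi line. On the arrays at 2 h 9 of 9 were higher in RNAi-9 and 6 of 9 over 2-fold. After scaling to the hybridization controls the counts were 7 and 4 of 9. The largest difference was that of the heat shock protein locus Os02g54140 (5.38, the gene HSP18.6) and the smallest that of the dehydrin locus Os01g50700 (0.31). The HSP70 locus Os03g16920 had 8.46 in RNAi-9 and 6.58 in WT, and the LEA loci Os01g50910 and Os04g49980 had differences of 1.06 and 0.98.

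Of the genes that make, break down and relay ABA, 1 measured here passed 2-fold. The synthesis gene OsNCED3 was not paired with a probe set here, as OsABA8ox3 was not. None of the 10 genes for ABA synthesis and breakdown passed 2-fold in either direction, and the median difference was 0.04. ABA8OX2 and ABA8OX1, which encode the other 8′-hydroxylases, had 9.07 and 10.94 in RNAi-9, against 8.31 and 11.05 in WT, at 2 h. ABA8OX1 had been over 2-fold higher in RNAi-9 at 0 h (12.91, against 11.83 in WT), so that the genotypes were closer after PEG than before. The aldehyde oxidase gene AO-2 was the lowest of the list at −0.85, and was over 2-fold lower with the hybridization controls. The carotenoid genes PSY1, PSY2 and PSY3 had 0.19, −0.37 and 0.41. Of 10 SnRK2 kinases none passed 2-fold, with a range of −0.33 to 0.72. The bZIP factor gene ABF2 had 14.60 in RNAi-9 and 14.32 in WT, and the receptor gene PYL11 11.58 in RNAi-9 and 11.77 in WT. Among 56 protein phosphatases 2C only PP2C08 passed 2-fold (11.70 in RNAi-9, 10.60 in WT), and the median was 0.03. In this list 30 genes had a higher signal in RNAi-9 and 23 a lower one. The list takes the family by name, so its median need not hold for the members that relay ABA. PP2C30 and PP2C68, bright in both genotypes after PEG, had 14.37 and 13.83 in RNAi-9, against 13.83 and 13.35 in WT. After scaling to the hybridization controls PP2C08 was no longer over 2-fold higher and 3 phosphatases were over 2-fold lower. Neither count exceeded the share of all named genes, 4.62% higher before that scaling and 6.58% lower after it.

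Sugar export and sugar metabolism had members that were higher in RNAi-9. SWEET11, a sucrose exporter, had 9.26 in RNAi-9 and 5.85 in WT at 2 h and was under 6 in both at 0 h. SWEET15 had 9.37 in RNAi-9 and 8.24 in WT, and SWEET16 had 12.46 in RNAi-9 and 11.37 in WT. These were the 3 of 18 SWEET and sugar transporter genes over 2-fold higher (4.62% of all named genes), none was lower, and SWEET11 alone kept its call under hybridization control scaling, which put 1 other gene over 2-fold lower. The sucrose synthase gene SUS5 had 8.07 in RNAi-9 and 6.44 in WT at 2 h, with nearly the same values at 0 h (8.08 in RNAi-9, 6.48 in WT). The α-amylase gene AMY3D, by contrast, differed by 1.57 at 2 h and 0.51 at 0 h. With the starch synthase gene SS1 (1.15) these were the 3 of 28 sucrose and starch genes past 2-fold higher. TPP9, a trehalose phosphate phosphatase, was the 1 of 8 such genes past 2-fold, with 13.47 in RNAi-9 and 12.31 in WT. Neither SS1 nor TPP9 stayed over 2-fold with the hybridization controls.

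Some genes for the cell wall and for auxin signalling were higher in RNAi-9 at both times. In the cellulose synthase superfamily 5 of 29 genes were over 2-fold higher at 2 h and 6 at 0 h, with medians of 0.14 and 0.52, and none was lower at either time. CESA7 and CESA4, subunits of the cellulose synthase of secondary walls, had 9.80 and 9.52 in RNAi-9, against 8.29 and 8.24 in WT, at 2 h. CESA9, the other subunit of that complex, was further apart at 0 h (1.73) than at 2 h (0.83). Of 26 Aux/IAA repressors, which hold auxin response factors inactive, 5 were over 2-fold higher at 2 h (IAA30, IAA2, IAA13, IAA9 and IAA31) and none lower, with a median of 0.41, and 4 were over 2-fold higher at 0 h. Over all named genes 4.62% were over 2-fold higher at 2 h and 4.29% at 0 h. IAA30 had 9.59 in RNAi-9 and 7.65 in WT. None of the 17 auxin response factors passed 2-fold at 2 h. Of these calls, hybridization control scaling left CESA7 and IAA30 only. The expansin gene EXPA5 had 7.93 in RNAi-9 and under 6 in WT, and EXLA4 differed by 1.29, 2 of 29 expansins, which is near the share of all named genes. Among 34 kinesins 4 were over 2-fold higher, KIN14O the furthest (10.17 in RNAi-9, 8.50 in WT), and none lower, against 3 higher and 3 lower with the hybridization controls. Of 27 β-glucosidases 4 were over 2-fold higher, by 1.05 to 1.32, and 0 after scaling to the hybridization controls.

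**Figure D4:**
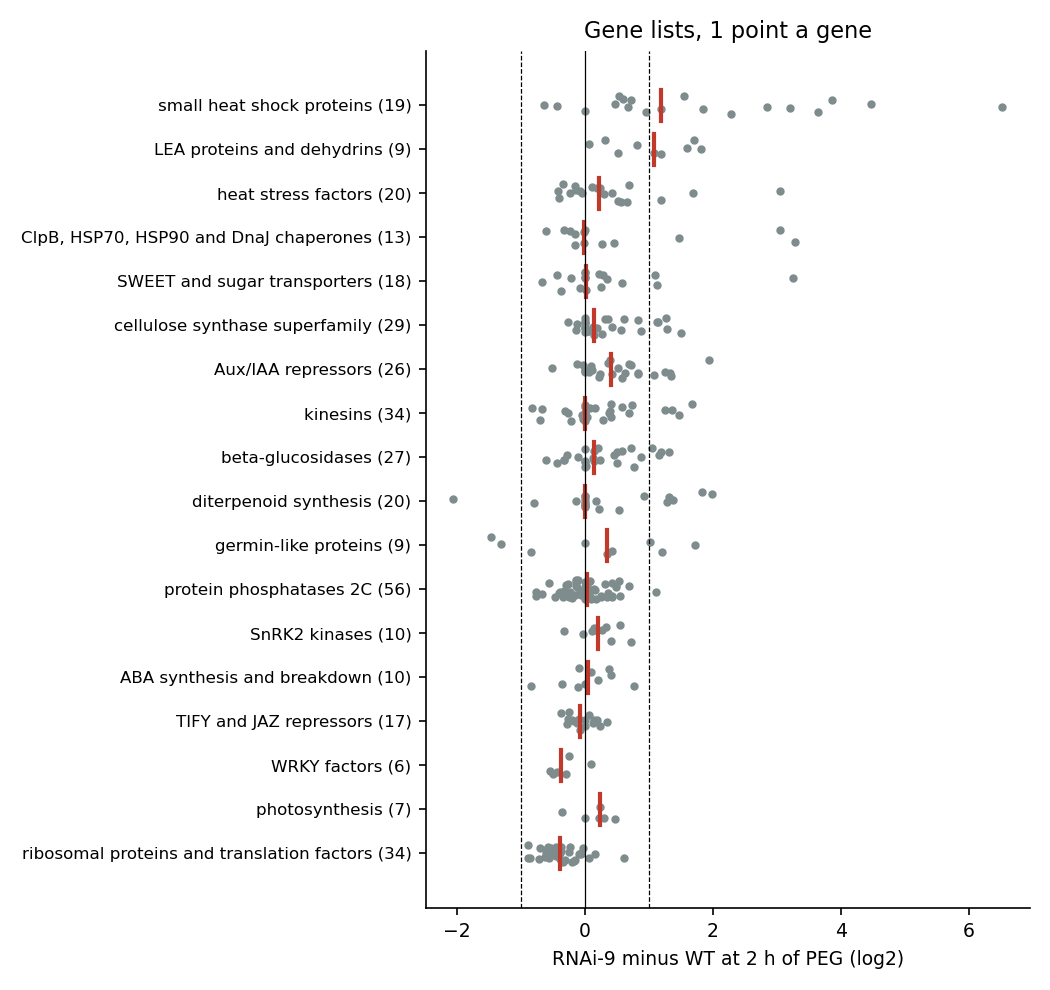
RNAi-9 minus WT log2 difference at 2 h of PEG for each gene (points, mean over its probe sets) of 18 gene lists, with the number of genes in parentheses, red bars at the list medians and dashed lines at 2-fold. Medians of 1.18 and 1.07 set the small heat shock proteins and the LEA proteins apart from lists such as protein phosphatases 2C (0.03) and ABA synthesis and breakdown (0.04).

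Some lists had members on both sides, against 4.62% higher and 1.06% lower over all named genes. In diterpenoid synthesis, which makes the antimicrobial phytoalexins and gibberellin precursors of rice, 5 of 20 genes were over 2-fold higher and 1 lower. CPS2, a copalyl diphosphate synthase, had 8.36 in RNAi-9 and 6.38 in WT, and KO1 had 10.08 in RNAi-9 and 8.26 in WT. CPS2, KS6 and CYP71Z6 lie within a stretch of 4 genes on chromosome 2 and were higher together, by 1.98, 1.31 and 1.38. CYP76M7, a hydroxylase of the same chemistry, was on the other side with 5.67 in RNAi-9 and 8.06 in WT. CPS2 was already apart at 0 h, with 9.35 in RNAi-9 and 6.88 in WT. Germin-like proteins had 3 of 9 genes over 2-fold higher and 2 lower. GER4 had 10.93 in RNAi-9 and 9.21 in WT, while GER6 had 8.90 in RNAi-9 and 10.22 in WT, and both were within 2-fold at 0 h. In the BURP domain family 2 of 7 genes were over 2-fold higher and 1 lower. BURP3 had 11.63 in RNAi-9 and 9.65 in WT at 2 h, and 8.83 in RNAi-9 and 7.04 in WT at 0 h. BURP17 had 8.88 in RNAi-9 and 10.72 in WT after near-equal signals at 0 h (10.22 in RNAi-9, 10.13 in WT). Aquaporins had PIP2-6 and TIP3 higher, by 1.24 and 1.1, and PIP2-4 lower, by −1.13, of 25 genes. With the hybridization controls the counts were 0 higher and 5 lower for aquaporins, 1 and 3 for germin-like proteins, and 3 and 2 for diterpenoid synthesis.

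Single members of other families were also higher. Except for the potassium transporters, their shares did not exceed the 4.62% of all named genes. C3H35, a CCCH zinc finger protein, had 12.69, 10.86 and 10.17 on its 3 probe sets in RNAi-9, against 10.92, 8.67 and 7.81 in WT, and lay within 2-fold on each at 0 h. C3H10 differed by 1.40, and these were the 2 of 50 CCCH genes past 2-fold. The metallothionein gene MT4A had 13.88 in RNAi-9 and 12.43 in WT at 2 h, and 14.28 in RNAi-9 and 12.68 in WT at 0 h. It was the 1 of 55 metal transport and metallothionein genes over 2-fold higher at 2 h. HAK13 and HAK14 were the 2 of 22 potassium transporter genes past 2-fold, by 1.17 and 1.12. SPX4, of the phosphate-sensing SPX family, differed by 1.25 and was the 1 of 23 ammonium, nitrate and phosphate transport genes over 2-fold higher. HOX7 (1.09) was the only one of 25 homeodomain-leucine zipper genes and CML9 (1.14) the only one of 33 calcium sensor genes past 2-fold. None of the 44 calcium-dependent and CBL-interacting kinases was, CIPK6 being closest at 0.87. With the hybridization controls C3H35 and MT4A stayed over 2-fold higher and C3H10, HAK13, HAK14, SPX4, HOX7 and CML9 did not, while 1 of the kinases and 3 of the calcium sensor genes were then over 2-fold lower.

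The 12 named genes furthest below WT had differences of −3.0 to −1.33, against 2.37 to 6.53 for the 12 furthest above, and 5 of the 12 below were already over 2-fold lower at 0 h. The first was a gene listed only as peroxidase, with 4.48 in RNAi-9 and 9.0 in WT at 2 h and 6.18 in RNAi-9 and 9.89 in WT at 0 h. GBSS1, the granule-bound starch synthase of the waxy locus, had 5.4 in RNAi-9 and 8.35 in WT at 2 h and 7.77 in RNAi-9 and 10.01 in WT at 0 h on 1 probe set. Another of its 6 probe sets was also over 2-fold lower (2.51 in RNAi-9, 7.53 in WT), and the remaining 4 were within 2-fold. P5CS2, for proline synthesis, had 4.66 in RNAi-9 and 8.0 in WT on 1 probe set, but its other 3 probe sets differed by 0.28, 0.24 and 0.00, so the gene was not lower throughout. MRL7, of plastid development, had 7.19 in RNAi-9 and 8.53 in WT, and a wider gap at 0 h (7.15 in RNAi-9, 9.32 in WT). CYC07, ribosomal protein S3A, differed by −1.45 on 1 probe set and by −0.74 to −0.70 on the other 3.

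The other 7 of the 12 lay within 2-fold at 0 h. The ammonium transporter gene AMT3-2 had 9.25 in RNAi-9 and 10.76 in WT at 2 h, against 9.25 in RNAi-9 and 9.39 in WT at 0 h. The pyruvate decarboxylase gene PDC had 5.69 in RNAi-9 and 7.72 in WT at 2 h and was under 6 in both at 0 h. In both genes the WT signal was higher after PEG than before it, while that of RNAi-9 differed little or stayed under 6. The germin-like gene GLP2 had 7.48 and 8.40 on its probe sets in RNAi-9, against 9.10 and 9.74 in WT, and 10.25 and 9.82 in RNAi-9, against 10.14 and 10.38 in WT, at 0 h. AOS2, an allene oxide synthase of jasmonate synthesis, had 7.77 in RNAi-9 and 9.11 in WT, and cap2 had 6.85 in RNAi-9 and 8.21 in WT. NAC45 (−1.12) was the 1 of 8 NAC factors past 2-fold, Cht11 (−1.08) the 1 of 15 chitinases and PR proteins and CYCA2-1 (−1.02) the 1 of 54 cell cycle, histone and replication genes. Over all named genes 1.06% were over 2-fold lower, which is near the share of the last list. With the hybridization controls the chitinases and the cell cycle list had 3 genes each over 2-fold lower and the NAC factors 1, against 6.58% of all named genes. None of 13 stress-associated zinc fingers and 9 peroxide-removing enzymes passed 2-fold in either direction, although 1 and 2 of them were over 2-fold lower with the hybridization controls. All 12 genes furthest below WT kept their call under hybridization control scaling, which widens differences of this direction.

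In some lists the genes past 2-fold before PEG were within 2-fold after it. Over all named genes 4.29% were over 2-fold higher in RNAi-9 and 1.59% lower at 0 h. At 2 h 4.62% were higher and 1.06% lower, and 6.58% were lower with the hybridization controls. The median of all named genes was 0.00 at both times, and −0.28 at 2 h with the hybridization controls. Of 17 TIFY and JAZ repressors of jasmonate signalling, 3 were over 2-fold higher in RNAi-9 at 0 h and none at 2 h, with medians of 0.41 and −0.08 (−0.49 at 2 h with the hybridization controls). JAZ12 had 13.15 in RNAi-9 and 11.66 in WT at 0 h, and 14.68 in RNAi-9 and 14.49 in WT at 2 h. Of 13 cytokinin response regulators, 4 were over 2-fold lower at 0 h and none at 2 h, or 1 with the hybridization controls. RR4 had 9.03 in RNAi-9 and 10.71 in WT at 0 h, and 10.57 in RNAi-9 and 9.96 in WT at 2 h. The 6 WRKY factors had medians on opposite sides, 0.44 at 0 h and −0.37 at 2 h (−0.78 with the hybridization controls), without a member past 2-fold at either time. None of the 12 DREB and ERF factors passed 2-fold at 2 h, and CBF3, 1.59 higher at 0 h, differed by 0.47.

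Most genes for ribosomal proteins and translation factors were slightly lower in RNAi-9. Of 34 genes 31 had a lower signal in RNAi-9 at 2 h, none past 2-fold, with a median of −0.39, and at 0 h the median was −0.66 with 3 genes over 2-fold lower. The median of all named genes was 0.00 at both times. After scaling to the hybridization controls the 2 h median of the list was −0.81 (−0.28 for all named genes) and 8 genes were over 2-fold lower. Over all named genes 1.59% were over 2-fold lower at 0 h, and 6.58% at 2 h with that scaling. The 7 photosynthesis genes had a median of 0.23 with none past 2-fold.

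The difference after PEG overlapped in part with that before it. The 0 h and 2 h comparisons share no array. At 0 h 1045 probe sets were over 2-fold higher in RNAi-9 (1.83% of all) and 635 lower (1.11%). At both times 364 were higher, which is 32.4% of those at 2 h and 34.8% of those at 0 h, and 93 were lower, which is 18.3% of those at 2 h and 14.6% of those at 0 h. At 2 h alone, with the 0 h difference within 2-fold, 752 were higher and 410 lower, and 7 and 6 probe sets changed sides. Across the 26519 probe sets with a signal of 6 or more on either 2 h array the Pearson correlation of the differences was 0.44. It is given as a description because probe sets of the same arrays are not independent. The value of 0.44 with the hybridization controls was nearly fixed in advance, because that scaling shifts all differences of a time alike except near the floor. Of the 42 probe sets over 8-fold higher at 2 h, 22 were already over 2-fold higher at 0 h and 20 were not.

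**Figure D5:**
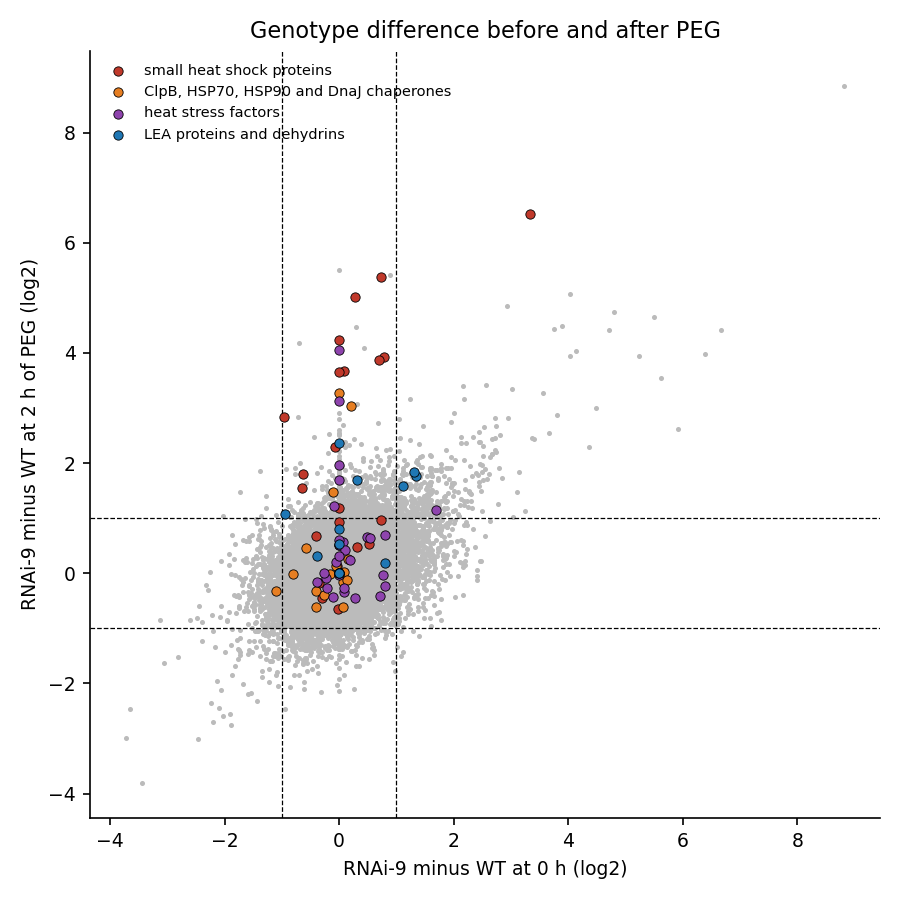
RNAi-9 minus WT log2 difference at 2 h of PEG (vertical axis) against the same difference at 0 h (horizontal axis) for the probe sets with a signal of 6 or more on either 2 h array, with dashed lines at 2-fold and 4 gene lists coloured. Most small heat shock proteins lie near 0 at 0 h and high at 2 h, while HSP26.7 (3.33 at 0 h, 6.53 at 2 h) and the grey points to the upper right were higher at both times.

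A set of 18 probe sets had a signal of 8 or more in RNAi-9 and under 6 in WT at both times, and 0 had the converse. Of these 18, 6 are paired with a gene and 1, that of HSP26.7, with a named gene. The largest difference on the array belonged to this set. It was that of a reporter control probe set, RPTR-Os-K01193-1_at, with 14.85 in RNAi-9 and 3.05 in WT at 2 h and 14.81 in RNAi-9 and 0.79 in WT at 0 h. The other 63 reporter probe sets differed by less than 2-fold, and the highest of them reached 7.02. The sources used here do not say which sequence the bright probe set detects.

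For probe sets without a gene name, the descriptions in the supplementary tables of the study were used for 498 probe sets. That study chose these as induced genes and, as the arrays show, all with a 2 h difference of 0 or more, so their direction is fixed by the choice, and no lower member exists to set against them. The furthest apart was the jacalin-like lectin locus Os12g14440, whose 2 probe sets read 13.89 and 13.02 in RNAi-9, against 8.82 and 8.16 in WT, at 2 h. It was also far apart at 0 h, with 11.27 and 9.70 in RNAi-9, against 7.25 and 6.78 in WT. An ethylene-responsive factor-like locus, Os01g21120, had 10.23 in RNAi-9 and 6.84 in WT. The early nodulin 93 loci Os06g04990 and Os06g05010 had 12.36 and 8.86 in RNAi-9, against 9.45 and 6.05 in WT, and were under 6 at 0 h on these probe sets. The lipid transfer protein locus Os10g40614 and the small cysteine-rich protein locus Os02g41904 differed by 2.60 and 2.55. Further HSP70 loci of this set, Os01g62290 and Os05g38530, had 10.98 and 10.07 in RNAi-9, against 9.05 and 8.36 in WT, and so stood with Os03g16920 above WT.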

How the data were processed

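The authors extracted leaf RNA, hybridized 1 Affymetrix Rice Genome Array a group, collected and normalized the signals with GCOS (MAS5 is the tool in the submitters' processing notes) and deposited them as log2 signals. The scaling target, the probe set summary settings and the detection calls are not given in the sources used here, and a rescaling that differs between arrays shifts every difference. Of 57381 probe sets, 123 controls were left out, signals under 6 were raised to 6, and RNAi-9 minus WT was taken (Python 3, pandas and numpy). A difference above 1 or below −1, which is 2-fold, was called. The functions were tested on simulated data. Where a signal lies under the floor, the difference given is smaller than that of the deposited signals. The number of arrays limits the precision.

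Of the probe sets, 22436 were paired with 1 gene and 95 with several, and names came from that pairing and from a rice gene table (assembly ASM3414082v1), used for names and gene order only. A gene took the mean over its probe sets, and 2447 genes had a name. The 42 gene lists were made by gene name. The members and lists were chosen with earlier results of these data known. Named genes are the 12 highest and 12 lowest at 2 h, up to 4 members a list, the ABA genes, the loci taken to quantitative PCR, and the highest probe sets described only by the study, of which the text prints a part; members named beyond this were chosen after their values were seen.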

Additional observations from a re-analysis of the deposited data

Results flagged for a closer look

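The reporter control probe set RPTR-Os-K01193-1_at gave 14.85 in RNAi-9 and 3.05 in WT at 2 h of PEG, which is a difference of 8.85 above the floor, and it differed by 8.81 at 0 h. It is a control probe set that is paired with no gene but is counted among the 57258 probe sets, and the highest of the other 63 reporter probe sets on any array was 7.02.

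BURP2, a BURP domain gene, differed between the times. On 1 of its probe sets it was 1.04 higher in RNAi-9 at 2 h (9.30 in RNAi-9, 8.26 in WT) and −2.02, that is lower, at 0 h (7.28 in RNAi-9, 9.30 in WT). Its other probe set was 1.36 higher at 2 h and differed by −0.17 at 0 h. The difference between the times was not tested, as each group has 1 array.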

How the results depend on the processing

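No paired analysis was possible because each group has 1 array, and for the same reason no array was left out in turn. The counts of probe sets over 2-fold higher and lower in RNAi-9 at 2 h were 1123 and 509, and at both times 364 and 93. Without the floor they were 9737 and 8634, and 3089 and 2173 at both times. A floor of 8 gave 509 and 160, and 157 and 34 at both times, and an offset of 32 gave 1721 and 1069 at 2 h. Scaling to the hybridization controls gave 452 and 2230, and 175 and 221 at both times, and moved the median difference of expressed probe sets from −0.01 to −0.38. A threshold of 1.5-fold gave 3020 and 2507, and 1074 and 717 at both times, and one of 3-fold 306 and 58, and 98 and 17. By gene, the counts were 563 and 224, and 203 and 39 at both times, with the mean of its probe sets, and 633 and 261, and 233 and 49, with its brightest. Fewer units are counted there.

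The number of small heat shock protein genes over 2-fold higher stayed within 1.5 times of 10 under all alternatives. Their median of 1.18 was 1.54 without the floor and without probe sets that can bind several transcripts, 1.51 with the offset, 0.55 with a floor of 8 and 0.93 with the hybridization controls. LEA genes over 2-fold higher numbered 3 in place of 5 with the hybridization controls and at 3-fold. Of the 42 lists, 22 had more genes over 2-fold higher than lower, against 10 with the hybridization controls and 12 at 3-fold. For the 24 named genes by rank, 160 of 168 values under 7 alternatives stayed past 2-fold in the same direction. The other 8 were lower genes with a floor of 8, whose WT signals were 7.72 to 9.0, and no value changed sign. Differences near the floor, such as those of probe sets under 6 in WT (197 of the 1123) or in RNAi-9 (112 of the 509), are the least certain.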
